A study of Homo sapiens with 9 samples.

Results

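Aminoacyl-tRNA synthetases join each amino acid to its transfer RNA (tRNA), the step that supplies protein synthesis with its building blocks. Most amino acids have a cytosolic and a mitochondrial enzyme, made from separate nuclear genes whose symbols end in 1 and in 2. GARS1 and KARS1 serve both compartments, FARSA and FARSB encode the subunits of the cytosolic phenylalanyl enzyme, EPRS1 joins glutamyl and prolyl activities in a single protein, and TARS3 is a second cytosolic threonyl enzyme. Uncharged tRNA activates the eIF2 kinase GCN2 (gene EIF2AK4), and the transcription factor ATF4, made when eIF2 is phosphorylated, is known to raise many cytosolic synthetase genes together with amino acid transporters.

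The genes described here are 36 synthetase genes chosen by name, 20 cytosolic (with the dual GARS1 and KARS1) and 16 mitochondrial. On the arrays, 33 of the 36 had a probe set with a single gene symbol, 18 cytosolic and 15 mitochondrial, and all 33 passed the filter on dim genes that left 13842 of 19775 genes. MARS1, QARS1 and TARS2 share their probe sets with a microRNA symbol and their levels are not analysed here.

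The cells were LiSa-2, a line from a human liposarcoma (a cancer of fat cells), read on Affymetrix U133 Plus 2.0 arrays. Bovine testicular hyaluronidase (HAase), which cuts the matrix polysaccharide hyaluronan, was given at 400 µg/mL. The groups were HAase for 24 h, HAase for 6 h, and phosphate-buffered saline (PBS) taken at 24 h, with 3 arrays each. All cells grew in medium with bovine serum, and the labels list neither an inactivated enzyme nor a PBS group at 6 h. Enzyme and harvest time therefore cannot be told apart in the 6 h comparison. Hours of HAase and harvest time cannot be told apart in the comparison of 24 h with 6 h HAase. Values are deposited signal intensities, compared as log2(signal + 16), and a gene is called higher or lower at a Benjamini-Hochberg adjusted limma p under 0.05 over all genes tested. No label tells whether the arrays of a group came from separate cultures, and p-values reflect the spread among these arrays alone, which may be technical in origin. In bulk RNA, fewer cells of a kind and less RNA per cell cannot be told apart.

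Array medians lay between 55.8 and 61.3, and arrays of a group correlated at 0.989 or more, against 0.974 or less between groups. The liposarcoma genes MDM2 and CDK4 and the adipocyte gene FABP4 were above the control probe sets on all 9 arrays, as were 7 of the 9 liposarcoma and adipocyte markers. Their summed signal was 38428 to 43264 with 24 h HAase, 53323 to 55742 with 6 h HAase and 63830 to 66269 with PBS, most of it from FABP4 (means of 26100.0, 31930.0 and 33300.0). The members differed: CEBPA (1002, 794 and 7089), PPARG (2014, 4088 and 5613), LPL, PLIN1 and ADIPOQ had lower means at both HAase times than in PBS, HMGA2 had higher ones (1643, 725 and 51), and MDM2 (1036, 1050.0 and 986) and CDK4 (7266, 7600.0 and 7786) lay close together. The log2 ratio of the 3' to the 5' control probe set for ACTB was 1.38 to 1.62 at 24 h, 1.14 to 1.5 at 6 h and 1.56 to 1.70 in PBS, and that for GAPDH was -0.21 to -0.02, -0.06 to 0.04 and -0.02 to 0.04. The ACTB ratio was thus lower at 6 h than in PBS and the GAPDH ratio lower at 24 h than in PBS, on all arrays. The part of these markers and ratios in the changes below was not tested. Of markers of other cells, EPCAM, CDH1 and KRT19 (epithelial), PTPRC (leukocyte) and CDH5 (endothelial) were above the controls on no array. One marker of each kind was above on all 9 arrays: KRT8, CSF1R and PECAM1. The summed epithelial signal was 191.5 to 259.9, 191.5 to 289 and 170.2 to 248 in the 24 h, 6 h and PBS groups, the leukocyte signal 258 to 305, 148 to 179 and 110.5 to 156, and the endothelial signal 415 to 433, 370.4 to 418 and 272 to 334.

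After 24 h of HAase, 11 of the 18 cytosolic synthetase genes measured were higher than in PBS and none was lower, while none of the 15 mitochondrial genes was higher and 2 were lower. Of all genes tested, 40.3% were called, 17.5% higher and 22.8% lower. The cytosolic median log2 fold change was 0.41, with single genes between -0.03 and 1.16, and the mitochondrial median was -0.07, with single genes between -0.56 and 0.19. The median of all genes tested was -0.03. The 24 h arrays all lay above the PBS arrays for 12 cytosolic and 2 mitochondrial genes (23.1% of all genes), and all below them for 0 cytosolic and 3 mitochondrial genes (28.9%, and 52% in either direction).

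**Figure D1:**
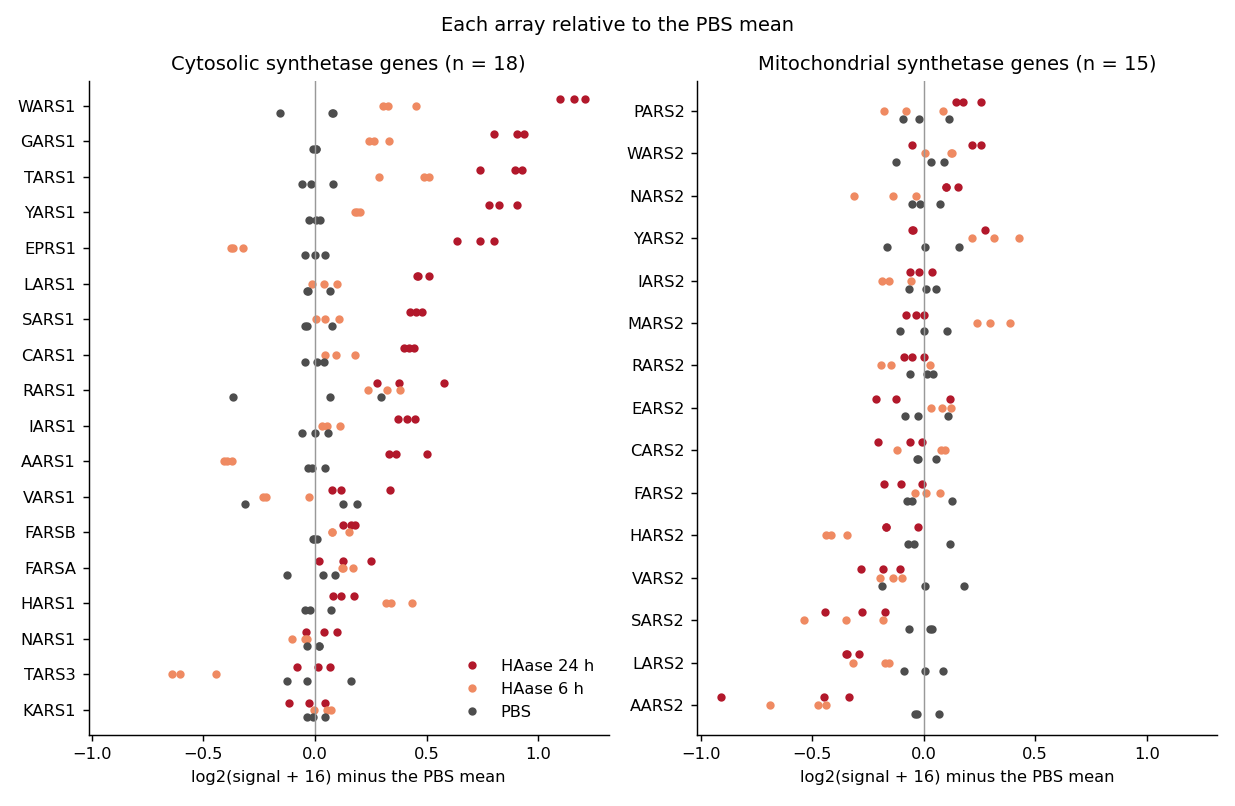
Each point is an array, plotted as log2(signal + 16) minus the mean of the 3 PBS arrays, for 18 cytosolic genes (left) and 15 mitochondrial genes (right), in the order of their change at 24 h. The 24 h points of WARS1, GARS1, TARS1, YARS1 and EPRS1 lie above all of their PBS points, and mitochondrial means reach at most 0.19 at 24 h.

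The 5 largest rises were in WARS1, GARS1, TARS1, YARS1 and EPRS1. WARS1, the tryptophanyl enzyme, also known as an interferon-induced gene, had signals of 2491, 2691 and 2595 with 24 h HAase, 1451, 1427 and 1584 with 6 h HAase, and 1219, 1220.5 and 1032 with PBS. The 3 groups did not overlap and the order ran from 24 h down to PBS. The change at 24 h was 1.16 ± 0.08 (log2 fold change ± SE, n = 3 each, limma adjusted p = 1.54e-05), 2.23-fold, and a further WARS1 probe set gave 1.44 ± 0.11 (adjusted p = 1.99e-05).

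GARS1, the glycyl enzyme of both compartments, had signals of 8711, 8910.0 and 8102 with 24 h HAase, 5836, 5582 and 5497 with 6 h HAase, and 4652, 4608 and 4661 with PBS. It too was highest at 24 h with no overlap between groups, and its change at 24 h was 0.88 ± 0.05 (limma adjusted p = 7.16e-06). The other dual gene, KARS1, the lysyl enzyme, stayed within 19208 to 21488 with 24 h HAase and 20354 to 21489 with PBS (-0.03 ± 0.06, adjusted p = 0.676). Without these dual genes, 10 of 16 cytosolic genes were higher at 24 h, with a median of 0.41.

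TARS1, the main cytosolic threonyl enzyme, had signals of 7914, 7082 and 8068 with 24 h HAase, 5167, 5954 and 6039 with 6 h HAase, and 4480.5, 4066 and 4179.9 with PBS. All 6 HAase arrays were above the PBS arrays, and the change at 24 h was 0.85 ± 0.08 (limma adjusted p = 0.000104), while a dim further probe set gave 0.06 ± 0.19 (adjusted p = 0.85). Its paralogue TARS3 was dimmer, at 244, 234 and 219 with 24 h HAase and 261, 211 and 226 with PBS, and gave 0.00 ± 0.09 (adjusted p = 1).

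YARS1, the tyrosyl enzyme, had signals of 6969.8, 7365 and 6757 with 24 h HAase, 4446, 4526 and 4472 with 6 h HAase, and 3853, 3990.3 and 3943 with PBS. Its groups did not overlap, and the change at 24 h was 0.84 ± 0.05 (limma adjusted p = 6.35e-06), with 0.79 ± 0.07 in a further probe set.

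EPRS1 followed another course, with signals of 4491, 4701 and 4187 with 24 h HAase, 2063, 2141 and 2081 with 6 h HAase, and 2600.0, 2688 and 2771 with PBS. The 6 h arrays were the lowest and the 24 h arrays the highest. The change at 24 h was 0.73 ± 0.06 (limma adjusted p = 3.25e-05), but its other probe sets did not pass the test there (0.20 ± 0.18 and -0.11 ± 0.30), and the mean of all 3 lost the call (adjusted p = 0.243).

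The other cytosolic rises at 24 h were smaller. LARS1 (leucyl) changed by 0.48 ± 0.05, SARS1 (seryl) by 0.45 ± 0.06, CARS1 (cysteinyl) by 0.42 ± 0.05, IARS1 (isoleucyl) by 0.41 ± 0.05 and AARS1 (alanyl) by 0.40 ± 0.06, with limma adjusted p between 0.00025 and 0.00095. The 24 h arrays of these 5 genes were all above their PBS arrays, for example 5406, 5609 and 5494 against 3893, 4238 and 3921 for SARS1. A further SARS1 probe set rose by 1.35 ± 0.08, a larger change than in the brighter probe set, and further probe sets of CARS1 gave 0.55, 0.62 and 0.38 and of LARS1 0.42 and 0.42, with -0.15 ± 0.26 in a dim probe set.

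FARSB was called with a small change of 0.16 ± 0.05 (limma adjusted p = 0.0286), from signals of 4629, 4683 and 4518 with 24 h HAase and 4168, 4112 and 4127 with PBS. Leaving out single arrays gave adjusted p between 0.0332 and 0.0797, past 0.05 without HAase 24 h array 1 or 2 or any PBS array (0.073, 0.0797, 0.0646, 0.0777 and 0.0705 in that order). Its partner subunit FARSA gave 0.13 ± 0.08 (adjusted p = 0.231).

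Cytosolic genes that did not pass the test at 24 h also included RARS1, VARS1, HARS1 and NARS1. RARS1 (arginyl) had signals of 6955, 5649.9 and 6048 with 24 h HAase and 4879.9, 5720.5 and 3605 with PBS, so that its wide PBS arrays reached into the HAase range. Its change of 0.41 ± 0.16 was as large as that of IARS1 but had an limma adjusted p of 0.0782, and 0.0235 without PBS array 2. VARS1 (valyl) gave 0.18 ± 0.14, HARS1 (histidyl) 0.12 ± 0.06 and NARS1 (asparaginyl) 0.03 ± 0.05, with adjusted p of 0.376, 0.13 and 0.662.

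**Figure D2:**
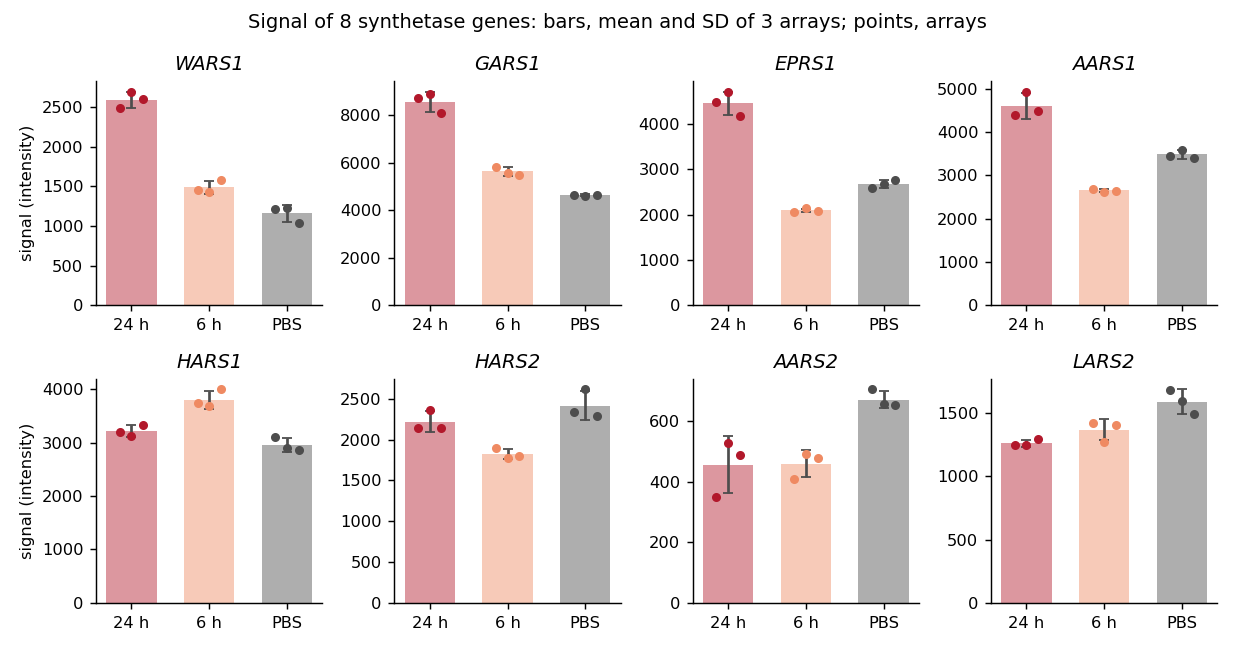
Bars are the mean signal of 3 arrays, error bars the SD and points the arrays, for 8 synthetase genes with HAase for 24 h, HAase for 6 h and PBS. EPRS1 and AARS1 are lowest at 6 h and highest at 24 h, HARS1 is highest and HARS2 lowest at 6 h, and AARS2 and LARS2 are highest in PBS.

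Both mitochondrial falls were modest, and 2 of 15 genes were lower beside 22.8% of all genes. AARS2, the mitochondrial alanyl enzyme, had signals of 349.7, 529 and 488 with 24 h HAase, 410.3, 490.2 and 479 with 6 h HAase, and 704, 655 and 652 with PBS. All HAase arrays were below the PBS arrays, and the 24 h change was -0.56 ± 0.15 (limma adjusted p = 0.0166), with an adjusted p of 0.0538 without PBS array 1. LARS2, the mitochondrial leucyl enzyme, had signals of 1245, 1247 and 1293 with 24 h HAase, 1422, 1271 and 1407 with 6 h HAase, and 1683, 1593 and 1491 with PBS. It too was lower on every HAase array than in PBS, with a 24 h change of -0.33 ± 0.07 (adjusted p = 0.00545). A further, dimmer probe set of each gene did not pass the test at 24 h, at -0.81 ± 0.47 for AARS2 (adjusted p = 0.217) and -0.22 ± 0.08 for LARS2 (adjusted p = 0.058).

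SARS2, the mitochondrial seryl enzyme, gave 475, 511 and 422 with 24 h HAase against 552, 594 and 589.5 with PBS. The arrays did not overlap, but its change of -0.30 ± 0.10 did not pass (limma adjusted p = 0.0533). Single arrays left out moved that p between 0.0329 and 0.153, under 0.05 without HAase 24 h array 2 or HAase 6 h array 1 or 2 (0.0457, 0.0361 and 0.0329 in that order). The remaining 12 mitochondrial genes did not pass the test at 24 h. PARS2 (prolyl) gave 0.19 ± 0.08, WARS2 (tryptophanyl) 0.14 ± 0.10, NARS2 (asparaginyl) 0.12 ± 0.08 and YARS2 (tyrosyl) 0.06 ± 0.12. IARS2 (isoleucyl), MARS2 (methionyl), RARS2 (arginyl), EARS2 (glutamyl), CARS2 (cysteinyl), FARS2 (phenylalanyl) and HARS2 (histidyl) gave values between -0.01 and -0.12. Further CARS2 probe sets gave 0.39 ± 0.21, 0.01 ± 0.24 and, under the filter on dim genes, 0.28 ± 0.33 and -0.97 ± 0.09. Of these only the last passed the test (limma adjusted p = 8.42e-05). VARS2 (valyl) gave -0.19 ± 0.10 (adjusted p = 0.158, and 0.0352 without PBS array 3).

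The arrays had been scaled to a common trimmed mean before deposit, and setting their medians equal moved the median of all genes by 0.09 at 24 h and 0.16 at 6 h. At 24 h the share of all calls that were higher was 43.4%, and 57.7% with equal medians. With that scaling 13 cytosolic genes were higher and 0 lower at 24 h (HARS1 and RARS1 were added), beside 3185 higher and 2332 lower of the 13842 genes tested. PARS2 was higher among the mitochondrial genes, whose median was then 0.02. AARS2 and LARS2 were lower under both scalings and under quantile normalization.

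Promoter sequences from RefSeq (GRCh38.p14) reached from 250 bases before to 50 after each listed start, and 30 of the 36 genes matched, 16 cytosolic and 14 mitochondrial. Some genes have several listed starts, 1.31 windows per cytosolic gene, 1.29 per mitochondrial gene and 1.29 over all genes, and a gene was counted if any of its windows held the motif. The C/EBP-ATF composite element, the kind of site that ATF4 binds with a C/EBP partner, was searched as TGATGNAA on both strands. It was found in 7 of the 16 cytosolic genes (AARS1, CARS1, GARS1, IARS1, MARS1, NARS1 and TARS1), in 1 of the 14 mitochondrial genes (YARS2) and in 4.46% of 27305 genes. Per window the shares were 33.3% of cytosolic, 5.56% of mitochondrial and 3.62% of all windows. Of the cytosolic genes with the element that were measured, 5 of 6 were higher at 24 h, and of those with a promoter without it, 4 of 8. Of all genes tested, 17.5% were higher at 24 h. Genes with and without the element were not tested against each other.

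The sites are shown for the 7 of 16 cytosolic genes that hold the element and for YARS2. Each is read on the gene's own strand with the 8 motif bases in capitals.
TARS1, chr5:33440937-33440982, + strand: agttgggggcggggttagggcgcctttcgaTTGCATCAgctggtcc
GARS1, chr7:30594815-30594860, + strand: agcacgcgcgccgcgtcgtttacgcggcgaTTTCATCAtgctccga
IARS1, chr9:92293695-92293740, - strand: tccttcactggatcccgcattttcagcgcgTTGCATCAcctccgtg
CARS1, chr11:3057410-3057455, - strand: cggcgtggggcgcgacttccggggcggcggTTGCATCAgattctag
MARS1, chr12:57488034-57488079, + strand: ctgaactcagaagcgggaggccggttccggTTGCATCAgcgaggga
AARS1, chr16:70289678-70289723, - strand: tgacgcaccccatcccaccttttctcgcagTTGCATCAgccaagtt
NARS1, chr18:57621807-57621852, - strand: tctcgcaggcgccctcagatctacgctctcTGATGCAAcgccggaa
YARS2, chr12:32756079-32756124, - strand: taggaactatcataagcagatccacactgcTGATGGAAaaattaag
In 6 of the 7 cytosolic genes the letters are those of TTGCATCA or its reverse complement, and GARS1 has TTTCATCA. Positions are from the listed start whose window holds the motif, and TARS1 has a further listed start, upstream of the one used. In IARS1, CARS1, MARS1 and TARS1 the motif begins at -13, -2, -4 and 3, in NARS1 at 15 and in GARS1 at -33. In AARS1 and YARS2 it lies further out, at -187 and -197. NARS1 holds the element and gave 0.03 ± 0.05 at 24 h, and WARS1, the gene with the largest rise, holds no match in its window.

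Other searches gave smaller differences between the compartments. The E-box CACGTG, a site of MYC and its relatives, was in 1 of 16 cytosolic and 3 of 14 mitochondrial genes (8.77% of all genes), the ETS site CCGGAAGT in 5 of 16 and 3 of 14 (4.95%), and the NRF1 core CGCATGCG in 0 of 16 and 1 of 14, in MARS2 (2.46%). A match is a description of letters in these windows and was not tested as a binding site.

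At 6 h the cytosolic genes moved both ways. Of the 18, 5 were higher and 3 lower than in PBS, and of the 15 mitochondrial genes 1 was higher and 4 were lower, where 42.4% of all genes were called, 15% higher and 27.4% lower. The cytosolic median was 0.08 and the mitochondrial median -0.10, against -0.08 for all genes tested. Arrays did not overlap, HAase above PBS, for 8 cytosolic and 2 mitochondrial genes (19.7% of all genes), and below PBS for 3 and 4 genes (34.5%, and 54.2% in either direction). The 6 h and 24 h comparisons share the PBS arrays, so their values are set side by side only.

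TARS1 changed by 0.43 ± 0.08 at 6 h, HARS1 by 0.36 ± 0.06, WARS1 by 0.36 ± 0.08, GARS1 by 0.28 ± 0.05 and YARS1 by 0.19 ± 0.05, with limma adjusted p between 0.00163 and 0.017. YARS1 had an adjusted p of 0.0526 without HAase 6 h array 2 and 0.0579 without PBS array 1, and a dim further probe set of TARS1 gave -0.31 ± 0.19, so that the mean of its probe sets was not called (adjusted p = 0.731). SARS1 was not called at 6 h (0.05 ± 0.06, adjusted p = 0.493), but a further SARS1 probe set was higher (0.39 ± 0.08, adjusted p = 0.00422). The mean of the SARS1 probe sets was called too (adjusted p = 0.0157). HARS1 was highest at 6 h, with signals of 3734, 3676 and 3993 at 6 h, 3199, 3119 and 3331 at 24 h, and 3096, 2899 and 2856 with PBS.

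The 3 cytosolic genes lower at 6 h were TARS3 (-0.56 ± 0.09), AARS1 (-0.39 ± 0.06) and EPRS1 (-0.36 ± 0.06), with limma adjusted p of 0.00167, 0.0011 and 0.00179. TARS3 had 166, 143 and 147 at 6 h against 261, 211 and 226 with PBS. AARS1 had 2686, 2621 and 2644 at 6 h against 3451, 3592 and 3404 with PBS, and reached 4388, 4929.9 and 4482 at 24 h. AARS1 and EPRS1 were thus below PBS at the earlier time and above it at the later time, on every array. The further EPRS1 probe sets did not pass at 6 h (-0.37 ± 0.18 and -0.56 ± 0.30, limma adjusted p = 0.141 and 0.182). The mean of its probe sets was not called there either (adjusted p = 0.0758). With equal array medians AARS1 and TARS3 were still lower at 6 h and EPRS1 was not (limma adjusted p = 0.0583). With that scaling 13 cytosolic genes were higher, beside 3328 higher and 2094 lower of the 13842 genes tested. The share of all calls that were higher was 61.4% in place of 35.4%.

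Among mitochondrial genes at 6 h, MARS2 was higher (0.31 ± 0.07, limma adjusted p = 0.00858), with 349, 364 and 389 at 6 h, against 317, 294 and 271 with PBS. AARS2 was lower by -0.53 ± 0.15, HARS2 by -0.40 ± 0.07, SARS2 by -0.35 ± 0.10 and LARS2 by -0.21 ± 0.07. Their limma adjusted p was 0.0205, 0.00268, 0.0263 and 0.0335. These 4 of 15 genes are close to the 27.4% of all genes that were lower at 6 h. Further probe sets did not pass at 6 h for AARS2 (-0.44 ± 0.47, adjusted p = 0.494) or LARS2 (-0.07 ± 0.08, adjusted p = 0.522). None of these 4 was called lower with equal array medians, where the adjusted p was 0.0713, 0.0502, 0.243 and 0.596 in the same order and the mitochondrial median was 0.06. Single arrays left out also ended calls: AARS2 without HAase 6 h array 1 or PBS array 1 (0.0666 and 0.0633), SARS2 without HAase 6 h array 2 or 3 or PBS array 2 or 3 (0.074, 0.0622, 0.076 and 0.0712), and LARS2 without HAase 6 h array 2 or 3 or PBS array 1 or 2 (0.103, 0.0533, 0.107 and 0.0833). YARS2 gave 0.32 ± 0.12 with a limma adjusted p of 0.0626, and 0.0339 without HAase 24 h array 3 and 0.0456 without PBS array 1. CARS2 gave 0.02 ± 0.08 and was not called, but a dimmer CARS2 probe set was lower (-0.77 ± 0.24, limma adjusted p = 0.0341).

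Between the 2 HAase times, 11 cytosolic genes were higher at 24 h than at 6 h and 1 was lower, and of the mitochondrial genes 2 were higher and 1 lower, where 33% of all genes were called, 19.7% higher and 13.3% lower. The cytosolic median was 0.37 and the mitochondrial median -0.03, against 0.05 for all genes. Arrays at 24 h were above those at 6 h for 12 cytosolic and 3 mitochondrial genes (27.5% of all genes) and below for 1 and 1 (18.4%, and 45.9% in either direction). This comparison uses no PBS array, so hours of HAase and harvest time cannot be told apart in it.

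EPRS1 had the largest difference between the times, 1.08 ± 0.06 or 2.12-fold (limma adjusted p = 1.09e-05), and here a further probe set also passed (0.57 ± 0.18, adjusted p = 0.0442). WARS1 followed with 0.80 ± 0.08, AARS1 with 0.79 ± 0.06, YARS1 with 0.65 ± 0.05, GARS1 with 0.60 ± 0.05 and TARS3 with 0.56 ± 0.09. LARS1, TARS1, SARS1, IARS1 and CARS1 differed by 0.43 to 0.32. HARS1 was the cytosolic gene that was lower at 24 h than at 6 h (-0.24 ± 0.06, adjusted p = 0.0154), but not past the test without HAase 24 h array 2 (0.0524) or HAase 6 h array 3 (0.0528).

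Of the mitochondrial genes, NARS2 (0.28 ± 0.08, limma adjusted p = 0.0255) and HARS2 (0.28 ± 0.07, adjusted p = 0.0182) were higher at 24 h than at 6 h and MARS2 was lower (-0.35 ± 0.07, adjusted p = 0.0067). NARS2 had 1268, 1319 and 1267 at 24 h and 1153, 949 and 1073 at 6 h. Its call was lost without any of the HAase 24 h arrays and without HAase 6 h array 2 or 3 (adjusted p from 0.0546 to 0.0754), and that of HARS2 without HAase 24 h array 2 or HAase 6 h array 2 or 3 (0.0583, 0.0587 and 0.0546 in that order). With equal array medians the share of all calls that were higher was 46.3% in place of 59.8%, and neither NARS2 nor HARS2 was called (adjusted p = 0.125 and 0.0923).

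The cytosolic and mitochondrial enzymes for the same amino acid were compared as the change of their ratio on each array, in 13 pairs that count FARS2 once with FARSA and once with FARSB. At 24 h the ratio was above its PBS values on all arrays in 9 pairs, below in 1 and overlapping in 3, with a median difference of log2 changes of 0.46. For single genes, the 24 h arrays lay above PBS in 23.1% and below in 28.9% of all genes, and that share was not computed for ratios of other genes. An exact two-sided permutation test of 3 arrays against 3 gives no p under 0.1, so no single pair could pass (adjusted over the 13 pairs, the smallest p was 0.13). The largest differences were 1.02 ± 0.18 (SE, n = 3 each) for WARS1 over WARS2, 0.96 ± 0.15 for AARS1 over AARS2, 0.80 ± 0.07 for LARS1 over LARS2, 0.78 ± 0.17 for YARS1 over YARS2 and 0.75 ± 0.08 for SARS1 over SARS2. In the alanyl, leucyl and seryl pairs the cytosolic change was positive and the mitochondrial change negative. NARS1 over NARS2 was the pair with a lower ratio (-0.08 ± 0.05).

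**Figure D3:**
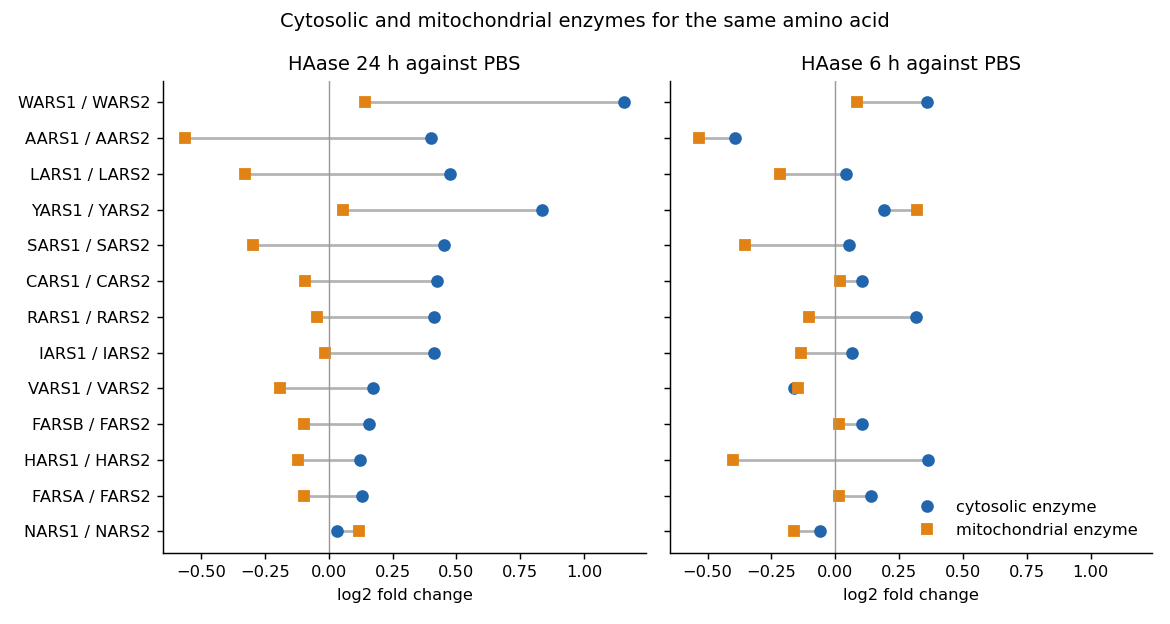
Log2 fold changes against PBS of the cytosolic enzyme (circle) and mitochondrial enzyme (square) for the same amino acid, joined by a line, with HAase for 24 h (left) and 6 h (right). At 24 h the circle lies right of the square in all pairs but NARS1 and NARS2, and at 6 h the widest gap is that of HARS1 and HARS2.

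At 6 h the ratio was higher on all arrays in 4 pairs, lower in 0 and overlapping in 9, with a median of 0.14 and a smallest adjusted p of 0.325. The histidyl pair stood first there, at 0.76 ± 0.09, with HARS1 at 0.36 and HARS2 at -0.40. Between the times 8 ratios were higher and 1 was lower, the histidyl pair at -0.52 ± 0.09 (smallest adjusted p = 0.144).

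HARS1 and HARS2 lie head to head on chromosome 5, and the 84 bases between their RefSeq starts are shown because these neighbours had changes of opposite sign at 6 h. They are read on the + strand of GRCh38.p14, with the 2 ETS sites in capitals.
HARS1 and HARS2, chr5:140691371-140691454, + strand: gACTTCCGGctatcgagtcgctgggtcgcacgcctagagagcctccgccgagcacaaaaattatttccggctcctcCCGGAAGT
HARS1 is read to the left from base 140691370 and HARS2 to the right from base 140691455. At 6 h HARS2 had 1895, 1775 and 1803, against 2338, 2613 and 2293 with PBS, and all its 6 h arrays were below its PBS arrays. At 24 h both genes lay closer to PBS, HARS2 at -0.12 ± 0.07 (limma adjusted p = 0.22).

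The cytosolic genes were also grouped by what is known of the enzymes. Synthetases fall into class I and class II by the fold of their catalytic site, and several cytosolic ones sit in a multi-synthetase complex held by AIMP1 and other scaffold proteins. Of the class I cytosolic genes 6 of 8 were higher at 24 h (median 0.45), and of class II 5 of 10 (median 0.14), beside 17.5% of all genes. EPRS1 was counted in class I for its glutamyl part, though its prolyl part is of class II. Both subunit genes FARSA and FARSB, and both TARS1 and TARS3, count in class II. For enzymes of the complex 3 of 5 measured members were higher (EPRS1, LARS1 and IARS1, median 0.41), and outside it 8 of 13 (median 0.40). The scaffold gene AIMP1 gave -0.01 ± 0.04 at 24 h and -0.01 ± 0.04 at 6 h (limma adjusted p = 0.911 and 0.935). These groups were not tested against each other.

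Genes that work beside the synthetases in tRNA charging and its quality control had 4 of 17 tested genes higher and 4 lower at 24 h (median -0.01), close to the 17.5% and 22.8% of all genes, and 2 higher and 6 lower at 6 h (median -0.18), beside 15% and 27.4% of all genes. XPOT, the exporter of tRNA from the nucleus, rose by 0.78 ± 0.05 at 24 h, with a signal of 8661 ± 261 with 24 h HAase and 5051 ± 31.4 with PBS (SD, n = 3 each). DTD1, which removes D-amino acids from tRNA, rose by 0.49. QRSL1, a subunit of the mitochondrial amidotransferase that makes glutaminyl-tRNA, fell by 0.49 on the log2 scale, and the tRNA methyltransferase TRMT5 fell by 0.43.

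**Figure D4:**
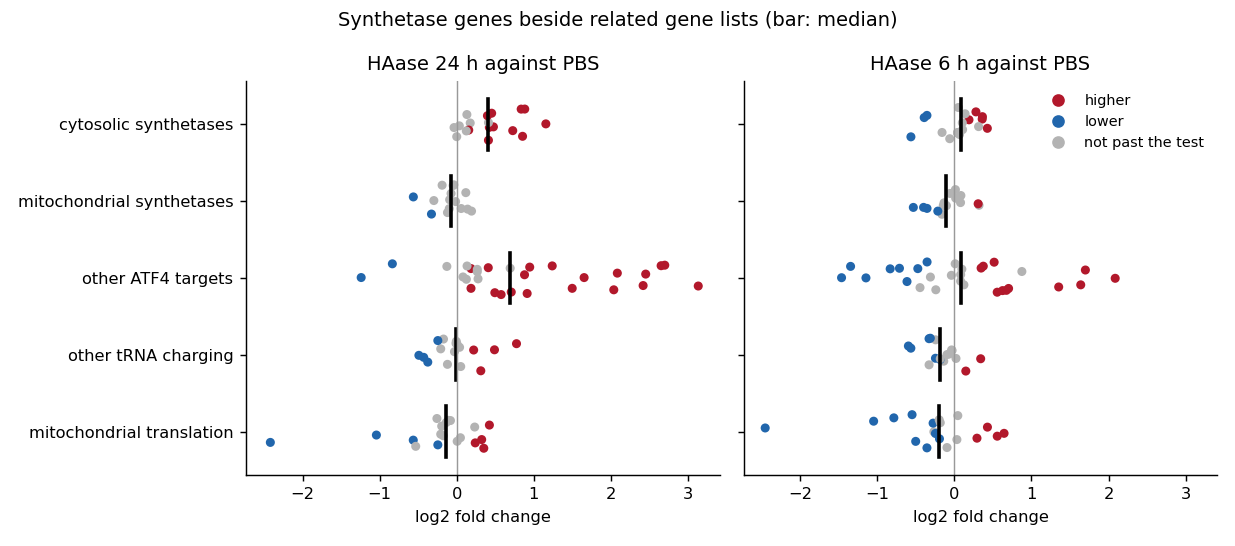
Log2 fold changes against PBS of single genes (points) and their median (bar) in the synthetase genes and 3 related lists, with HAase for 24 h (left) and 6 h (right), coloured by the limma call. At 24 h the medians are 0.41 for cytosolic synthetases, -0.07 for mitochondrial synthetases and 0.69 for other ATF4 targets, a list that includes ATF4.

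The list of known ATF4 targets outside the synthetases, which holds ATF4 itself, had 19 of 29 tested genes higher and 2 lower at 24 h (median 0.69), 11 higher and 8 lower at 6 h (median 0.08), and 23 higher and 1 lower at 24 h against 6 h (median 0.61). Without ATF4, 18 of 28 were higher and 2 lower at 24 h (median 0.63). Of all genes, 17.5% were higher and 22.8% lower at 24 h, and 15% and 27.4% at 6 h. Between the times the shares were 19.7% and 13.3%. DDIT4, an inhibitor of mTORC1, rose by 3.13 at 24 h, the transporters SLC7A5 and SLC7A11 rose by 2.70 and 2.65, and ASNS, asparagine synthetase, by 2.45. ASNS had a signal of 2241 ± 76.6 with 24 h HAase, 307 ± 14.1 with 6 h HAase and 398 ± 39.4 with PBS (SD, n = 3 each). Like AARS1 and EPRS1, ASNS was lower than PBS at 6 h (-0.35 ± 0.08, limma adjusted p = 0.00699) and higher at 24 h. TRIB3, a pseudokinase induced by ATF4, rose by 2.42 at 24 h and 1.35 at 6 h, and DDIT3, the stress factor CHOP, by 0.88 and 0.56. CHAC1, a glutathione-degrading enzyme, was above the brightest control probe set on no PBS array, and was at least 2.62-fold higher at 24 h (adjusted p = 0.00331) and not past the test at 6 h (adjusted p = 0.106). ATF4 itself rose by 0.91 ± 0.05 at 24 h and 0.35 ± 0.05 at 6 h. ATF3 was among the 2 genes of the list that were lower at 24 h (-0.83 ± 0.09, limma adjusted p = 0.000135). It was lower at 6 h as well (-0.47 ± 0.09, adjusted p = 0.00299). Changes in the list at 24 h lay between -1.24 and 3.13.

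Among eIF2 kinases, eIF2 subunits and amino acid sensors, 4 of 18 genes were higher and 5 lower at 24 h (median 0.04). This was beside 17.5% and 22.8% of all genes. At 6 h 5 were higher and 6 lower (median 0.00), beside 15% and 27.4% of all genes. On the log2 scale PPP1R15A, a subunit of the eIF2 phosphatase, rose by 2.04, while SESN1 fell by 1.04 and the eIF2 kinase gene EIF2AK2 fell by 0.77. The leucine sensor SESN2 was 2.83-fold higher on the linear scale. PPP1R15A and SESN2 are also in the list of ATF4 targets and are counted in both lists. MYC and its partners had 3 of 7 genes higher and 0 lower at 24 h (median 0.26), beside 17.5% and 22.8% of all genes. At 6 h 2 were higher and 3 lower (median -0.17), beside 15% and 27.4% of all genes. MYC rose by 0.77 ± 0.04 at 24 h and 1.35 ± 0.04 at 6 h, MXD1 by 0.44 and MAX by 0.31 at 24 h.

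Mitochondrial translation and transcription factors had 4 of 19 genes higher and 4 lower at 24 h (median -0.14), close to the 17.5% and 22.8% of all genes, and 4 higher and 9 lower at 6 h (median -0.20), beside 15% and 27.4% of all genes. PPARGC1A, the coactivator of mitochondrial biogenesis, fell by 2.42 on the log2 scale at 24 h, its relative PPARGC1B fell by 1.04 and the mitochondrial ribosomal protein gene MRPL12 fell by 0.56, while the mitochondrial RNA polymerase gene POLRMT rose by 0.42.

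Because WARS1 is known as an interferon-induced gene, 7 other such genes were read beside it. Of these, 1 was higher and 4 were lower at 24 h (median -0.89), and 2 higher and 1 lower at 6 h (median -0.10). Of all genes, 17.5% were higher and 22.8% lower at 24 h, and 15% and 27.4% at 6 h. MX1, above the controls on 1 of 3 arrays at 24 h so that the size of its change is uncertain, fell by 2.79, and OAS1 fell by 1.47, IFIT1 by 1.40 and GBP1 by 0.89 on the log2 scale, while IRF1, the transcription factor, rose by 0.72.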

How the data were processed

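The authors deposited a signal intensity per probe set, in sample tables that the series design text traces to CHP files. How probes were summarised and on which genome build is not given in the sources used here, and the 2% trimmed mean of every array lay between 500.07 and 500.075. CEL files, which served the submitters' own analysis, were not used here. Here values were used as log2(signal + 16) without further normalization, so fold changes understate those of dim genes. A gene was represented by its probe set with 1 symbol and the highest mean log2 value over 9 arrays. Genes under the 30th percentile (signal 32.24) were left out, and 13842 were fitted over all 9 arrays by lmFit and eBayes of limma 3.58.1 under R 4.3.3, with Benjamini-Hochberg adjustment over all genes tested. The number of arrays limits the precision. All 33 synthetase genes measured lay above 27 control probe sets of Bacillus subtilis on all 9 arrays. The limma step was tested on simulated data. Synthetase genes and lists were chosen with earlier results of these data known. Every synthetase gene was named, and of each other list up to 4 genes by size of change at 24 h past the test. ATF4, ASNS, TRIB3, DDIT3, CHAC1, MYC and AIMP1 were named too, and ATF3 as a fall among the ATF4 targets. Alternatives were the pseudocount, normalization, filter, probe set rule, the limma options, the samples fitted, a block for the replicate number and leaving out single arrays. Promoters came from RefSeq, assembly GRCh38.p14. Probe sets with several symbols were left out. The aspartyl enzymes were not used here.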

Additional observations from a re-analysis of the deposited data

Results flagged for a closer look

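For 15 synthetase genes the change against PBS at 24 h differed from that at 6 h. The test was the limma comparison of 24 h with 6 h HAase, in which the PBS arrays, all taken at 24 h, cancel. With no PBS group at 6 h, hours of HAase and harvest time cannot be told apart in these differences. The difference of the log2 changes was 1.083 for EPRS1 (0.73 at 24 h and -0.36 at 6 h) and 0.7901 for AARS1 (0.40 and -0.39). These were the genes called against PBS at both times with opposite signs, though the further EPRS1 probe sets passed at neither time. The difference was 0.7954 for WARS1, 0.647 for YARS1, 0.6027 for GARS1, 0.4349 for LARS1, 0.4266 for TARS1, 0.4011 for SARS1, 0.3447 for IARS1 and 0.3165 for CARS1, whose 24 h change was the larger one. TARS3 differed by 0.564, being lower at 6 h (-0.56) and at 0.00 at 24 h. Of the mitochondrial genes, NARS2 differed by 0.28, HARS2 by 0.2796 and MARS2 by -0.3456. HARS1 differed by -0.2395, opposite in sign to its neighbour HARS2. Adjusted p ranged from 1.09e-05 for EPRS1 to 0.0255 for NARS2. Groups of 3 arrays are too small for a search for single outlying arrays.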

How the results depend on the processing

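Over 19 other settings, 10 of the 13 synthetase calls at 24 h, 6 of the 13 at 6 h and 11 of the 15 between the times kept their call and direction. Quantile normalization gave 1 mitochondrial gene higher at 24 h, 2 higher and 2 lower at 6 h and 1 higher between the times, medians of 0.39 and 0.0451 (cytosolic, 24 h and 6 h) and of -0.0244, -0.0254 and -0.0908 (mitochondrial, 24 h, 6 h and between the times), and 1 lower pair ratio at 6 h. Equal array medians gave 1 mitochondrial gene higher at 24 h and 0 higher between the times. At 6 h they gave 13 cytosolic and 2 mitochondrial genes higher and 0 mitochondrial genes lower, beside 3328 higher and 2094 lower of the 13842 genes tested. Cytosolic medians were 0.50, 0.25 and 0.30 and mitochondrial medians 0.0191, 0.0587 and -0.0992 (24 h, 6 h and between the times). Mitochondrial genes higher between the times numbered 1 with no filter or with only the 2 groups compared, and those higher at 6 h numbered 2 with the 50th percentile filter or with limma's trend and robust options. The mean of all probe sets gave 1 mitochondrial gene lower at 24 h and 2 at 6 h, and cytosolic medians of 0.34 at 24 h and 0.33 between the times. A pseudocount of 64 left 0 lower pair ratios at 24 h. The cause of these shifts was not tested.

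Arrays that share a number share only that: their deviations correlated between -0.05 and 0.04, and those of other numbers between -0.06 and 0.06. With the replicate block, 2 mitochondrial genes were lower at 6 h and 1 was higher between the times. Leaving out single arrays gave 10 to 11 cytosolic genes higher at 24 h, 4 to 6 at 6 h and 11 to 12 between the times, with 0 to 0, 3 to 3 and 0 to 1 lower. Mitochondrial counts were 0 to 0 higher and 1 to 3 lower at 24 h, 1 to 2 and 2 to 4 at 6 h, and 0 to 3 and 1 to 2 between the times. Mitochondrial medians lay between -0.0965 and -0.0385, between -0.124 and -0.054, and between -0.0719 and 0.0186. Some dimmer probe sets had the opposite sign and did not pass the test: EPRS1 -0.11, FARSB -0.13 and LARS1 -0.15 at 24 h, and TARS1 -0.31 at 6 h. A dimmer CARS2 probe set, above the filter, had the opposite sign and did pass. It gave -0.77 at 6 h and 0.78 between the times (limma adjusted p = 0.0341 and 0.0399). A further CARS2 probe set, under the filter, gave -0.97 at 24 h and -0.95 between the times (limma adjusted p = 8.42e-05 and 0.000179). The CARS2 probe sets thus disagreed in sign. Dim signals and 3 arrays per group limit what small changes can be called.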
